A study of Mus musculus with 6 samples.

Results

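The cells described here, named Cd209a-positive type 2 dendritic cells after their markers, came through a sort for T cells in a mouse glioma. They were selected on gene expression, counted as UMIs (unique molecular identifiers, each marking 1 captured RNA molecule). A member had at least 5000 gene UMIs, at most 10% mitochondrial UMIs and a barcode in no T cell receptor (TCR) contig table of its day. It had no UMI of Cd3d, Cd3e or Cd3g, at least 2 of Cd209a, at least 10 of H2-Ab1, at most 1 of Fscn1 and none of Xcr1 or Clec9a. Of the 1017 barcodes with no Cd3 UMI at day 13, 94 were members (9.24%, exact 95% binomial interval 7.53% to 11.2%). At day 19 they were 32 of 343 (9.33%, interval 6.47% to 12.9%), so 126 of 1360 in all. The series held 13545 barcodes within the UMI and mitochondrial limits, of which 5698 lay outside the contig tables. Intervals here and below cover counting error only.

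The mice were wild-type C57BL/6J, 6 to 8 weeks old, and carried intracranial tumors of CT2A, a mouse glioma line. Day 13 is the early group, with 16 mice pooled by 4, and day 19 the late group, with 4 mice. Cells stained for CD3 together with CD4 or CD8 were sorted, and each day was 1 capture with 10x 5' chemistry that gave gene expression, antibody tag and TCR libraries. With 1 capture per day there is no test between the days: differences are given with their counting intervals, and a gene is called higher or lower only past 2-fold. No untreated or tumor-free group was analysed here. The shares above are shares of what passed the CD3 sort, and say nothing of how many dendritic cells the tumors held.

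Type 2 dendritic cells take up antigen, load it on MHC class II and present it to CD4 T cells. Cd209a and Clec10a encode C-type lectins of their surface, and dendritic cells in general depend on the receptor Flt3 and carry the transcription factor Zbtb46. Like other myeloid cells they respond to type I interferon and to interferon gamma, whose target genes share short promoter elements bound by interferon-activated factors.

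Promoter stretches of genes that carry the results below are shown first, because the results below turn on interferon-response genes between the days and on class II genes, one of which, H2-Ab1, also chose the members. They are from RefSeq, build GRCm38.p6, 5′ to 3′ on the gene's own strand, with positions counted from the annotated start. In the first 4, capitals mark matches, on either strand, to GAAA followed by any 2 bases and GAAA, the core of the interferon-stimulated response element.
Rsad2: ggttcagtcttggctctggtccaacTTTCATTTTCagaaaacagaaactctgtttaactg
Ifit1: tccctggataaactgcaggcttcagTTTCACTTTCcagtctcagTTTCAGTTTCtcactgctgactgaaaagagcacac
Isg15: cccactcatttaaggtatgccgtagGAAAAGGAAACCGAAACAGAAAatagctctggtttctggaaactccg
Cxcl10: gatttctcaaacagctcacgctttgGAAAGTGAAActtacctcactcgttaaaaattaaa
In the next 3, capitals mark TGATTGG, the Y box of class II promoters, searched on both strands.
H2-Aa: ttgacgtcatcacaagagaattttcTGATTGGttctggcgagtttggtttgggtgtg
H2-Eb1: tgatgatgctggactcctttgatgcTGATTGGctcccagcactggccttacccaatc
H2-DMb1: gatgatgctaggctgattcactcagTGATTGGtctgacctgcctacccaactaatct

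These stretches lie upstream of the start of their genes. The Rsad2 stretch is chr12:26456538-26456597 on the minus strand, with capitals from -120 to -111. The Ifit1 stretch is chr19:34640760-34640838 on the plus strand, with 2 matches from -104 to -76. The Isg15 stretch is chr4:156200850-156200921 on the minus strand, where 3 matches overlap from -78 to -57. The Cxcl10 stretch is chr5:92349068-92349127 on the minus strand, with capitals from -213 to -204. The class II stretches are chr17:34287842-34287898 on the minus strand for H2-Aa, chr17:34305781-34305837 on the plus strand for H2-Eb1 and chr17:34153103-34153159 on the plus strand for H2-DMb1. That element was found in 3.44% of all 32851 promoter windows (250 bases before to 50 after a start), or for 1079 of all 27025 genes, and for 14 of the 24 type I interferon genes and 11 of the 19 interferon gamma genes matched. TGATTGG was found in 7.82% of all windows, or for 2431 of all 27025 genes, and for 8 of the 18 class II presentation genes matched. The 2 motifs do not overlap in these stretches, and a match is a description, not a bound site.

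Values just inside and just outside the rule's limits are given once. Members held 2 to 61 Cd209a UMIs at day 13 (median 9) and 2 to 58 at day 19 (median 10), with 10 and 2 members at exactly 2. Of the barcodes that met every other condition, 22 and 6 had 1 Cd209a UMI and 255 and 119 had none. H2-Ab1 ranged from 10 to 256 UMIs (median 81.5) at day 13 and from 24 to 187 (median 78) at day 19. Barcodes with 5 to 9 H2-Ab1 UMIs that otherwise qualified numbered 4 and 1, and members with 10 to 19 numbered 4 and 0. The condition on Xcr1 and Clec9a removed 33 and 14 barcodes, the condition on H2-Ab1 29 and 13, and the condition on Fscn1 0 and 1. Members held 63.1% of the Cd209a UMIs of all barcodes with no Cd3 UMI on each day.

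The median member had 9931 gene UMIs at day 13 and 10541 at day 19, and the sums behind each level were 938885 and 340188 UMIs. The other barcodes with no Cd3 UMI, 923 and 311, had medians of 9030 and 9570, and the T cells of the contig tables, 4630 and 3215, had 7607.5 and 10079. Antibody depth differed more, with a median of 4452.5 antibody UMIs in a member at day 13 and 2313.5 at day 19. Each capture carried 4 multiplexing tags. A single tag held at least 80% of the tag UMIs in 68 of 94 and 25 of 32 members, and these spread over the tags as 12, 21, 23 and 12 at day 13 and as 2, 13, 3 and 7 at day 19. Tags matched the 4 contig tables of their day among T cells, for at least 94.0% of the cells of a table, but the labels do not say which mice a tag marks. No member barcode occurred among the members of both days.

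Checked against the markers given for them, the members stood apart from the other barcodes in the 2 lectins, were above them by less in Kmo and Ciita, and had no common direction in H2-DMb2. Levels are UMIs of a gene per 1000000 gene UMIs of the summed cells (CPM). Cd209a, on which they were chosen, stood at 1455 CPM at day 13 and 1382 at day 19, against 88.3 and 86.3 in the other barcodes and 19.3 and 23.4 in T cells. Clec10a, a lectin for galactose-type sugars, stood at 229 and 582 CPM, against 29.3 and 46.8 in the others. Its log2 ratio to the others was 2.97 and 3.64.

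Kmo, an enzyme of the kynurenine pathway, stood at 217 and 147 CPM in members, 75.5 and 76.9 in the others and 160 and 190 in type 1 dendritic cells, so it did not set members apart from those. Ciita, the master regulator of class II genes, stood at 112 and 99.9 CPM against 65.7 and 71.6. H2-DMb2, a chain of the class II loading chaperone, stood at 122 and 106 CPM in members against 106 and 147 in the others and 165 and 247 in mature dendritic cells. Here mature dendritic cells are other barcodes with at least 5 Fscn1 UMIs and a Ccr7 UMI (104 and 25), type 1 dendritic cells those with at least 2 UMIs of Xcr1 and Clec9a together (64 and 19), and C1q macrophages those with at least 10 UMIs of C1qa, C1qb and C1qc (247 and 108). These are cuts on gene UMIs too, and serve as descriptions.

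Per cell, a Clec10a UMI was found in 56 of 94 members at day 13 (59.6%) and 24 of 32 at day 19 (75%). After each barcode was thinned to 5000 UMIs, Clec10a was detected in 46.8% and 68.8% of members, 7.58% and 9.65% of the others and 1.10% and 1.24% of T cells, which should lack it. A Clec10a or Kmo UMI was found in 81 (86.2%) and 30 (93.8%) members, against 32.0% and 33.1% of the other barcodes and 6.78% and 6.47% of T cells. After thinning these shares were 76.6% and 87.5%, 23.2% and 25.4%, and 4.06% and 3.67%.

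**Figure D1:**
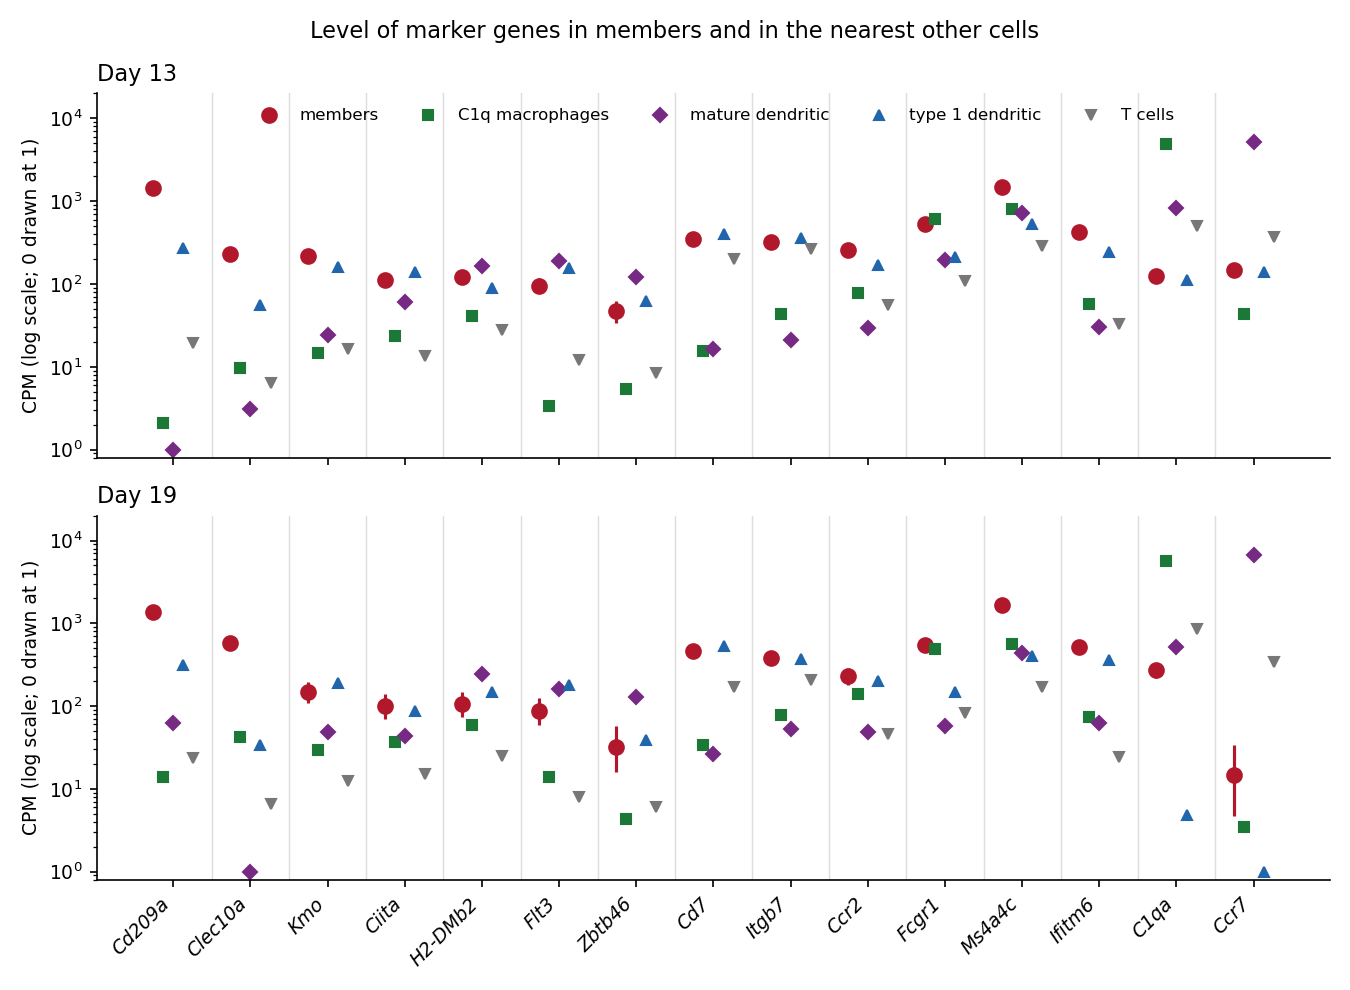
CPM of marker genes (log scale, 0 drawn at 1) in members, C1q macrophages, mature dendritic cells, type 1 dendritic cells and T cells at day 13 (top) and day 19 (bottom); bars are 95% counting intervals of the members. Members are highest for Cd209a and Clec10a on both days, lie near type 1 dendritic cells for Kmo, Cd7 and Itgb7, and lie far below C1q macrophages for C1qa.

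Flt3 and Zbtb46 stood below their levels in both other dendritic groups. Flt3, the growth factor receptor of the lineage, stood at 95.9 and 88.2 CPM in members, 157 and 180 in type 1 dendritic cells, 187 and 159 in mature dendritic cells and 3.34 and 14 in C1q macrophages. Zbtb46 stood at 46.9 and 32.3 CPM, against 121 and 128 in mature dendritic cells, 62.4 and 39.0 in type 1 dendritic cells and 5.42 and 4.38 in C1q macrophages. A Flt3 or Zbtb46 UMI was found in 58 members at day 13 (61.7%) and 21 at day 19 (65.6%), and after thinning in 45.7% and 53.1% of members, 26.3% and 22.5% of the other barcodes and 5.10% and 3.95% of T cells. Fcgr1, the high-affinity IgG receptor often used to mark monocyte-derived cells, was found in more of them. It had a UMI in 78 (83%) and 26 (81.3%) members, at 531 and 553 CPM, close to the 606 and 493 of C1q macrophages and above the 211 and 146 of type 1 dendritic cells. A Fcgr1 UMI together with a Flt3 or Zbtb46 UMI was found in 44 (46.8%) and 15 (46.9%) members, and after thinning in 31.9% and 34.4% of members, 13.3% and 7.07% of the others and 1.75% and 1.68% of T cells. In thinned T cells Fcgr1 was detected in 15.1% and 16.9% (19.1% and 24.2% unthinned), against 78.7% and 75% of members. Whether some or all members were monocyte-derived cells was not tested, so the name given to them is a label.

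Gene expression chose the members, so their differences from the other barcodes describe them and support nothing. Of 6702 genes with at least 50 UMIs in the 2 sums of each day, 37 (0.552%) were at least 2-fold higher in members on both days and 486 (7.25%) at least 2-fold lower. The median gene lay at -0.18 and -0.28 on the log2 scale, and when scaled by median ratios in place of total UMIs the counts became 74 and 362. Of the 26 type 2 dendritic cell genes listed, 21 had enough UMIs, and 4 were higher and 3 lower. The 4 were Cd209a, which the rule required, Clec10a, Cd209d and Cd7, and the 3 lower are not named here. Over the 21 genes the median log2 ratio was 0.43 at day 13 and 0.39 at day 19. Cd7, a surface glycoprotein also made by T cells, stood at 346 and 462 CPM against 137 and 161 in the others, and at 401 and 536 in type 1 dendritic cells. Cd209d, whose sequence resembles Cd209a so that reads could be split between them, stood at 49.0 and 55.9 CPM against 13.1 and 17.3, and at 58.6 and 58.5 in type 1 dendritic cells. Itgb7, an integrin chain, stood at 324 and 385 CPM against 128 and 167, again close to the 357 and 375 of type 1 dendritic cells.

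Several genes outside the dendritic cell lists were also higher. Wfdc17, a small secreted protein of myeloid cells, stood at 921 and 947 CPM against 349 and 260 in the others. Ccl9, a chemokine, stood at 236 and 317 CPM against 83.5 and 67.8, and only 33.1 and 34.1 in type 1 dendritic cells. Ltb4r1, a receptor for leukotriene B4, stood at 74.6 and 76.4 CPM against 21.2 and 29.5. Ccl9 and Ltb4r1 thus separated members from type 1 dendritic cells as well, whereas Cd7 and Itgb7 did not. Nr4a1, an immediate early nuclear receptor, stood at 1319 and 1205 CPM against 599 and 601, and Anxa1, a phospholipid-binding annexin, at 268 and 329 against 133 and 141. Lmo1, a LIM-domain protein, stood at 68.2 and 135 CPM against 23.8 and 27.9, and at 77.7 and 141 in type 1 dendritic cells.

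Lectins of the Cd209 and Clec families went both ways. Of 21 lectin and uptake receptor genes with enough UMIs, 3 were higher and 9 lower, beside 0.552% and 7.25% of all genes. The 3 higher were Cd209a, which the rule required, Clec10a, and Cd209d, which may share reads with Cd209a. Cd209c stood at 46.9 and 70.5 CPM against 3.32 and 3.45 in the others, Clec4b1 at 20.2 and 41.2 against 2.54 and 2.20, and Mrc1, the mannose receptor, at 21.3 and 32.3 against 3.98 and 4.71. These 3 were below the UMI minimum on at least 1 day and so uncounted. Clec4e, which senses mycobacterial lipid, was lower, at 6.39 and 2.94 CPM against 143 and 62.5. Fcgr3, a low-affinity IgG receptor, was lower at 109 and 173 CPM against 279 and 398.

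Monocyte genes did not move as 1 block. Of 15 such genes, 1 was higher and 6 lower, beside 0.552% and 7.25% of all genes. Ms4a4c stood at 1499 and 1643 CPM in members against 1169 and 716 in the others, and Ccr2, the receptor that draws monocytes to tissue, at 255 and 229 against 134 and 158. Ifitm6 was the 1 called higher, at 426 and 520 CPM against 194 and 196. Ly6c2, the gene of classical monocytes that T cells also express, was lower at 1658 and 1052 CPM against 3680 and 2519. Chil3, a chitinase-like protein of classical monocytes, had 1 UMI over the members of day 13 and none over those of day 19, against 242 and 234 CPM in the others.

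Genes of other cell types were mostly low, where 7.25% of all genes were called lower. Of 14 macrophage markers with enough UMIs, 13 were lower, and the list summed to 1364 and 2075 CPM in members against 37150 and 32793 in C1q macrophages. Gpnmb had no UMI in members of either day. All 7 microglia markers with enough UMIs were lower, and 12 of 21 mature dendritic cell genes were lower with none higher. The mature list holds Fscn1, which the rule capped in members, so the mature dendritic cells lay among the other barcodes. That count was thus partly set by the rule. The 18 T cell genes beyond the Cd3 genes summed to 46.9 and 38.2 CPM in members against 4967 and 4601 in T cells, and a Trac, Trbc1 or Trbc2 UMI was found in 5 of 94 and 0 of 32 members (interval up to 10.9%). Cd79a, the B cell receptor chain, had none in 94 and 32 members (intervals up to 3.85% and 10.9%).

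Some members carried macrophage RNA. A C1q UMI was found in 19 (20.2%) and 10 (31.3%) members, and 10 or more in 6 and 3. These UMIs lay in few cells: C1qa was found in 11 members (11.7%) at day 13, of which 1 held 35 of 116 UMIs, and in 6 (18.8%) at day 19, of which 1 held 58 of 93. After thinning it was detected in 8.51% and 12.5% of members, 31.6% and 38.3% of the other barcodes and 18.2% and 35.0% of T cells. In droplets of 10 to 100 UMIs, taken as a measure of free RNA, C1qa stood at 596 and 996 CPM, above the 124 and 273 of members. No doublet caller was run, and the part of doublets or free RNA in these values was not tested.

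Cd209a, Clec10a and macrophage genes differed within the members. Clec10a at day 13 stood at 167, 121 and 320 CPM in members with 2 to 4, 5 to 9 and at least 10 Cd209a UMIs. At day 19 it stood at 197, 425 and 925 CPM in the same bins, highest in both days in the top bin. Outside the rule, barcodes with no Cd209a UMI that met the other conditions had 30.3 and 37.8 CPM of Clec10a, and the 6 barcodes with 1 Cd209a UMI at day 19 had 314. C1qa ran the other way at day 13, with 1379 CPM at 0 Cd209a UMIs, 200 at 1, 324 at 2 to 4, 108 at 5 to 9 and 11.2 at 10 or more. At day 19 C1qa stood at 2336 CPM at 0, 113 at 1, 188 at 2 to 4, 821 at 5 to 9, where 1 of 7 cells held all 58 UMIs, and 88.7 at 10 or more.

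Ly6c2 also stood lowest in the members with most Cd209a, at 2017, 2495 and 1026 CPM in the 3 member bins of day 13 and 1844, 920 and 551 of day 19. Flt3 stood at 93, 112 and 89.4 CPM in the member bins of day 13, against 34.1 at 0 Cd209a UMIs and 85.1 at 1. At day 19 Flt3 stood at 26.9, 42.4 and 152 CPM in the member bins, against 27.6 at 0 and 50.3 at 1, so the 2 days did not share a pattern. Bins held 29, 21 and 44 members at day 13 and 9, 7 and 16 at day 19. Their median gene UMIs were 9064, 10304 and 10034 at day 13 and 11454, 10582 and 10028.5 at day 19.

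**Figure D2:**
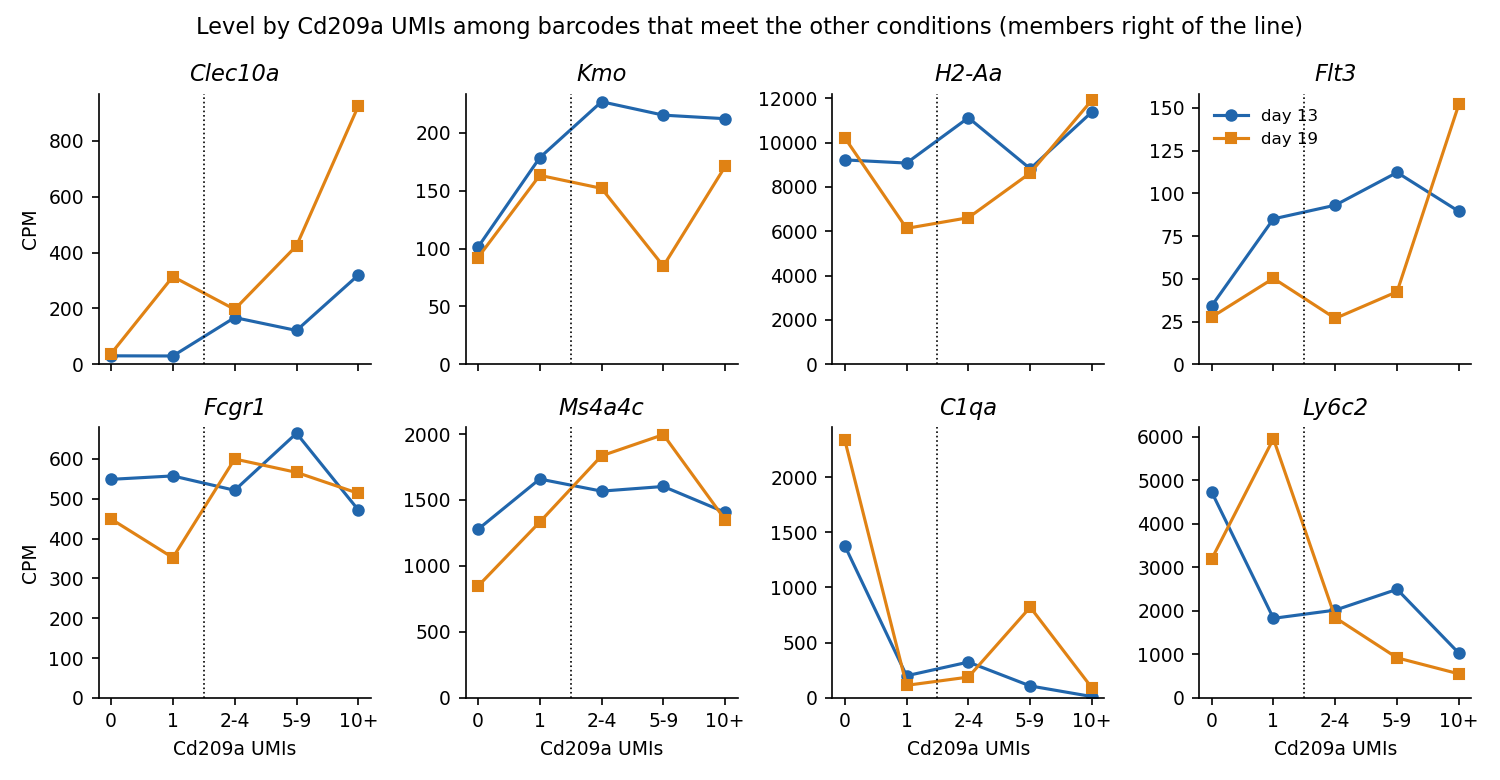
CPM of 8 genes (vertical axis) by the number of Cd209a UMIs (horizontal axis) among barcodes that met the other conditions, at day 13 and day 19; members lie right of the dotted line, and the bins left of it are outside the rule. Clec10a is highest in the bin of 10 or more Cd209a UMIs, at 320 and 925 CPM, where C1qa and Ly6c2 are low.

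Class II genes stood high in the members, which H2-Ab1 helped to choose. Cd74, the invariant chain, stood at 36320 and 29054 CPM in members against 16462 and 17784 in the others. H2-Aa stood at 10705 and 9498 CPM against 5114 and 6162, and H2-Eb1 at 7985 and 6029 against 4169 and 4780. H2-DMb1, whose product with H2-DMa edits the bound peptide, was the 1 gene of the list called higher on both days, at 1244 and 1255 CPM against 502 and 599. H2-Aa and Cd74 passed 2-fold at day 13 and not at day 19, where the others stood higher and members lower.

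Other parts of the same pathway were lower in members. Ctsb, Ctsl and Lgmn, which encode proteases of the endosome, were called lower, with Ctsb at 527 and 626 CPM against 2303 and 1917 and Ctsl at 22.4 and 38.2 against 293 and 379. Ctss, the protease that cuts the invariant chain, stood at 2022 and 2087 CPM against 3139 and 2818 and was not called. Of 21 presentation genes with enough UMIs, 1 was higher and 5 lower, beside 0.552% and 7.25% of all genes. Class II presentation genes, H2-Ab1 included, made up a median of 741 and 600 UMIs per 10000 in a member. The medians were 282 and 379 in the other barcodes and 11.9 and 13.7 in T cells. Type 1 dendritic cells were nearer to the members, at 545 and 517. C1q macrophages had 242 and 410 and mature dendritic cells 248 and 230.

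Antibody tags did not choose the members and give a second readout of the same cells. They are not independent of the rule, which required the class II gene H2-Ab1 and left out barcodes with Cd3 UMIs or TCR contigs. The class II tag and the T cell tags therefore only describe the members. Many tags stood near or below the isotype controls IgG1, IgG2a and IgG2b, at 25.3 and 24.2, 19.3 and 19.7, and 12.4 and 12.5 in members, so such values may be background, and the part of free antibody was not tested. Values are UMIs of a tag per 10000 antibody UMIs. Against the other barcodes, 0 of 138 tags (0%) were at least 2-fold higher on both days and 0 (0%) at least 2-fold lower. Most tags did not separate members from T cells by 1.5-fold: 120 of 138 lay within that range on both days, among them CD3, at 81.9 and 85.3 in members and 89.3 and 83 in T cells, and CD8a, at 18.6 and 18.6 against 20 and 20.6. The CD301b tag, against a lectin of type 2 dendritic cells, was in this group too, at 125 and 132 in members and 129 and 126 in T cells.

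The tags for class II and CD11b were higher per cell than in T cells. The median member had 79.8 and 84.1 of the IA/IE tag, against 11.2 and 15 in T cells and 25.7 and 37.2 in the other barcodes. Summed over cells the gap was smaller, with 90.3 and 91.4 in members, 32.5 and 46.8 in T cells and 97.7 and 111 in the other barcodes, so by sums the members were not above the others, and no tag was at least 2-fold above T cells on both days. CD11b, an integrin of myeloid cells, had a median of 45.4 and 57.4 in members, 50.3 and 60.7 in the other barcodes and 12.6 and 18.0 in T cells. CD90.2 and CD5, surface proteins of T cells, were the 2 tags at least 2-fold lower in members than in T cells on both days. The median for CD90.2 was 6.56 and 4.99 in members and 27.2 and 41.4 in T cells, and for CD5 11 and 11.7 against 22.6 and 28.8.

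Against the other barcodes a few tags differed on both days. Ly6C stood at 33.0 and 38.0 in members against 69.3 and 69.4, the same direction as Ly6c2 RNA. CD172a, the product of Sirpa, stood at 13.7 and 15.5 against 25.5 and 21.6, and CD274 at 11.5 and 12.2 against 17.7 and 21.2, but the members' values lay within or below those of the isotype controls. CD326 stood at 71.7 and 70.1 against 137 and 118, but the medians over cells were 73.1 and 69.3 against 69.7 and 68.1, so few cells set that gap. CD150 was the tag farthest above the others on both days, at 137 and 30.8 against 27.0 and 24.8, but 1 cell held 81.0% of its UMIs at day 13.

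**Figure D3:**
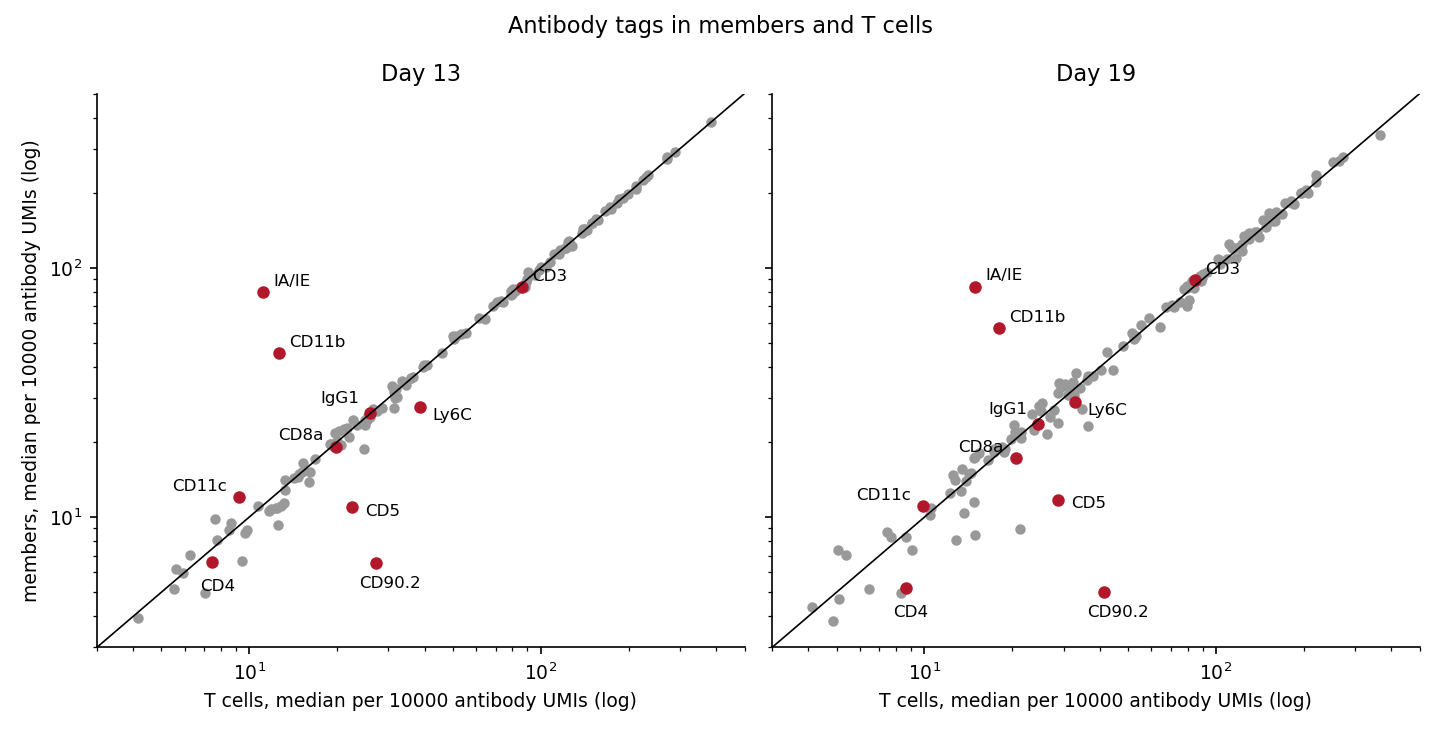
Median over cells of each of 138 antibody tags, in UMIs per 10000 antibody UMIs, in members (vertical, log scale) against T cells (horizontal, log scale) at day 13 (left) and day 19 (right), with the line of equal values. IA/IE and CD11b lie far above the line, CD90.2 and CD5 below it, and CD3, CD8a and the isotype control IgG1 on it.

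Summed over cells, type I interferon genes fell less between the days in members than in the other cells. The median member also stood lower at day 19. These genes encode antiviral proteins and their regulators. The 30 measured summed to 19516 CPM at day 13 and 17096 at day 19 in the Cd209a-positive cells, and to 19965 and 11177 in the other barcodes. The list stood at 13974 and 10016 CPM in C1q macrophages, 19970 and 9004 in mature dendritic cells, 13612 and 9962 in type 1 dendritic cells and 12276 and 7335 in T cells. Levels at day 13 thus lay close together in members and the other barcodes, and at day 19 members stood above each of these groups.

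Rsad2, an antiviral radical SAM enzyme, stood at 911 CPM at day 13 and 891 at day 19 in members, and at 785 and 251 in the other barcodes. Its log2 ratio of day 19 to day 13 was -0.03 (interval -0.23 to 0.16) in members and -1.65 in the others, a difference of 1.62 (1.40 to 1.83). Ifit1, which binds viral RNA, stood at 418 and 414 CPM against 314 and 136, a difference of 1.20 (0.88 to 1.51) in log2 ratio. Isg15, a ubiquitin-like protein, stood at 2344 and 2387 CPM against 3113 and 1547, a difference of 1.03 (0.91 to 1.16). Cmpk2, a nucleotide kinase encoded beside Rsad2, stood at 272 and 273 CPM against 182 and 72.2. Each of these genes was level in members between the days and at least 2-fold lower at day 19 in the others.

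Not every gene of the list held. Bst2, which tethers budding virus, stood at 1550 and 1052 CPM in members and 1856 and 1236 in the others, with log2 ratios of -0.56 and -0.59. Irf7, the factor that amplifies the response, stood at 2586 and 2096 CPM in members against 2725 and 1477. Among 29 genes with enough UMIs the median log2 ratio was -0.17 in members, with 6 above 0 and 23 below, and 0 were called. Over the same 29 genes it was -0.88 in the other barcodes. In the other barcodes 30 of 30 genes were below 0 and 13 were at least 2-fold lower, beside 148 of 9459 over all genes in those barcodes (1.56%). The members' ratio was above that of the others in 29 of 29 genes, beside 1567 of 3123 over all genes tested in both. Ifit and Slfn genes belong to families of near-identical copies, so their counts are uncertain one by one.

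Per cell, the list made up a median of 191 UMIs per 10000 at day 13 (highest 555) and 149 at day 19 (highest 466) in members. The medians were 179 and 89.7 in the other barcodes, 94.8 and 76.5 in C1q macrophages and 119 and 103 in type 1 dendritic cells. In mature dendritic cells they were 159 and 69.5. The median thus fell in members too, as in each of these groups. Rsad2 was detected in 63.8% and 56.3% of thinned members, 55.7% and 32.5% of the others and 40.8% and 19.7% of T cells. In free RNA it stood at 223 CPM at day 13 and 57.4 at day 19, both below the members.

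By multiplexing tag, members at day 13 had 18157, 22218, 22797 and 15668 CPM of the list on tags 1 to 4, and the others 17523, 17226, 21045 and 22783. At day 19 members had 7819 (2 cells), 15630, 32055 (3 cells) and 15463 CPM, and the others 3465, 10953, 15247 and 11123. Members were above the others on 4 of 4 tags at day 19 and on 3 of 4 at day 13. The members of the 2 days overlapped only through tag 3 of day 19, with 3 cells: the other 3 tags of day 19 lay below each day-13 value, as all 4 tags did in the others. Without tag 3 of day 19 the median ratio over the list was -0.27 in members and -1.04 in the others. The difference between the members and the others in how they changed was not tested, since each day is 1 capture.

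**Figure D4:**
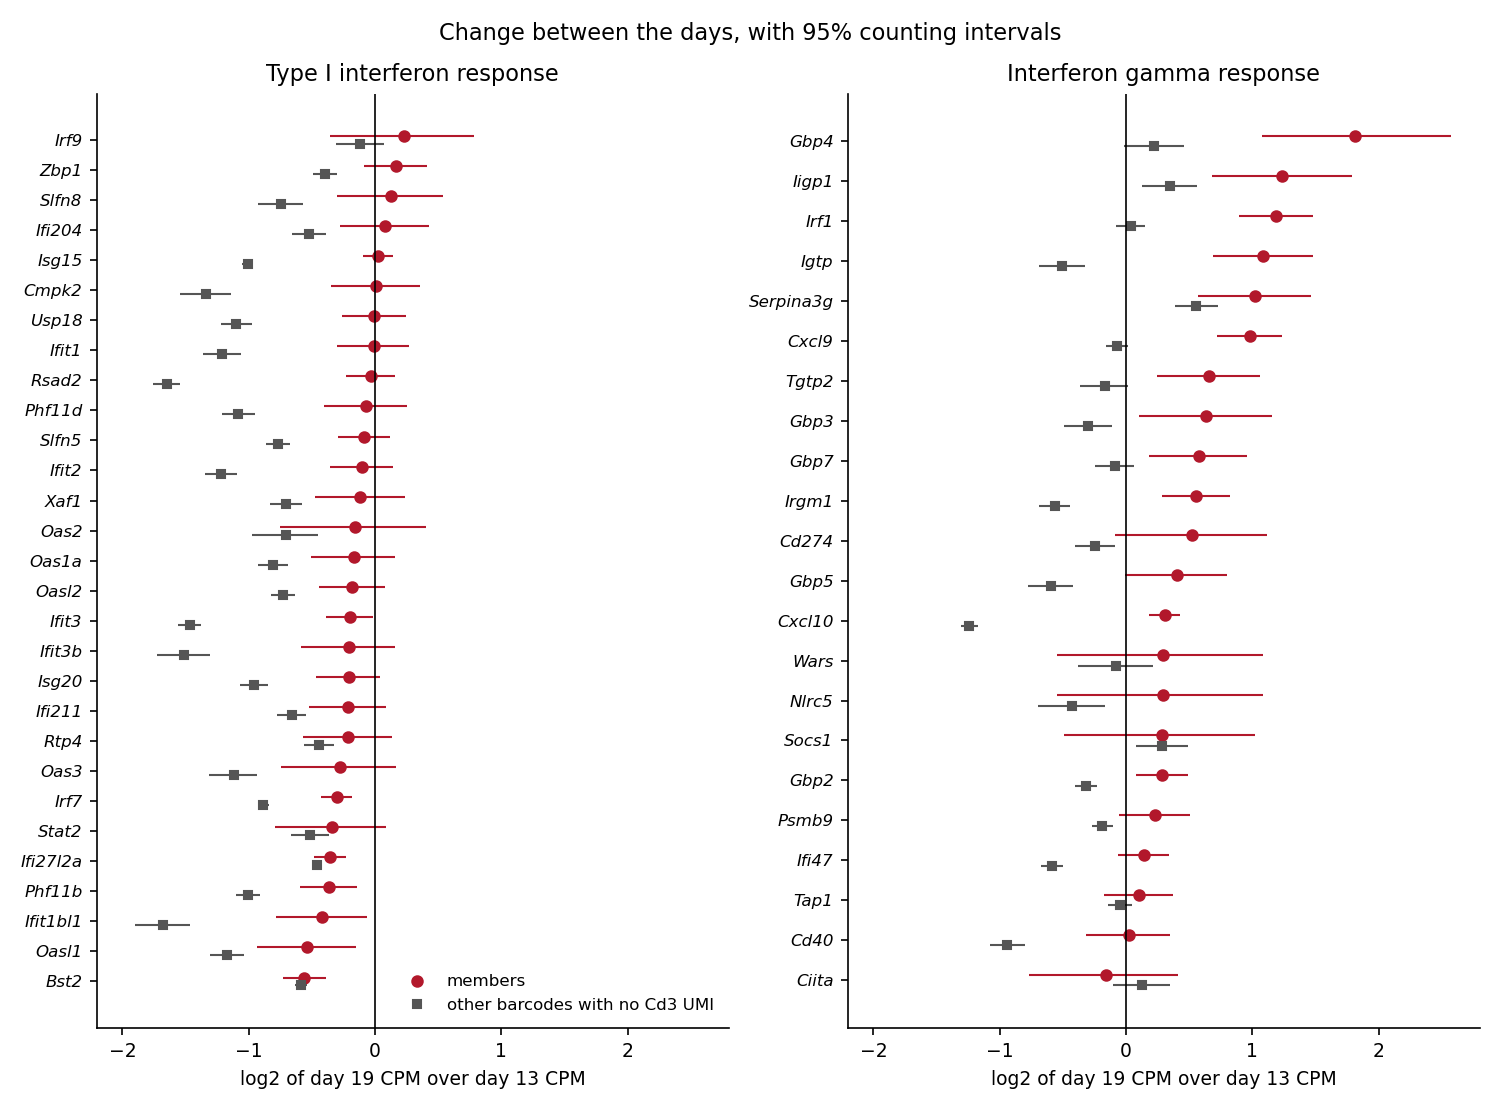
Log2 ratio of day 19 to day 13 CPM (horizontal axis) for each gene of the type I interferon list (left) and interferon gamma list (right) with enough UMIs in members, in members and in the other barcodes with no Cd3 UMI; lines are 95% counting intervals. Genes not reported by name are not drawn; members lie right of the others for each gene drawn on the left and for each on the right except Ciita.

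Interferon gamma response genes stood higher at day 19 in the summed members, and less so in the median member. The list summed to 7333 and 9583 CPM in members and to 7098 and 5391 in the other barcodes. Of 23 genes with enough UMIs 21 had a ratio above 0, and 5 were called higher beside 37 of 3124 genes (1.18%) over all genes with at least 50 UMIs in members. The median log2 ratio was 0.40 in members and -0.19 over the same genes in the others, and it was 0.01 over all genes. Members lay above the others in 22 of 23. Per cell, the list made up a median of 58.7 UMIs per 10000 in members at day 13 and 64.0 at day 19, while the upper quartile was 108 and 159. The medians were 51.1 and 41.5 in the other barcodes and 26.2 and 27.6 in C1q macrophages. They were 37.6 and 31.2 in type 1 dendritic cells and 68.5 and 49.9 in mature dendritic cells.

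Gbp4, an interferon-induced GTPase, stood at 30.9 CPM at day 13 and 109 at day 19 in members, a log2 ratio of 1.82 (1.08 to 2.57), against 55.9 and 65.3 in the others. Irf1, the transcription factor that drives many of these genes, stood at 231 and 526 CPM, a ratio of 1.19 (0.89 to 1.48), against 253 and 260. Iigp1 and Igtp, GTPases of cell-autonomous defence, stood at 66.0 and 156 CPM and at 133 and 282, and Serpina3g, a protease inhibitor, at 109 and 220. Without the day-19 cell that held most UMIs of each, these 3 of the 5 calls were lost: the ratio went from 1.24 to 0.85 for Iigp1, from 1.08 to 0.96 for Igtp and from 1.02 to 0.71 for Serpina3g. Irf1 was detected in 59.6% of thinned members at day 13 and 78.1% at day 19, and in 76.1% and 62.3% of T cells, which express it. The chemokine Cxcl10 stood at 1878 and 2322 CPM in members against 1380 and 584, and Cxcl9 at 324 and 638 against 495 and 471. Both attract T cells through the receptor Cxcr3. Cxcl9 came from 19 and 12 members, and 1 of these held 28.1% of its UMIs at day 19.

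The tags did not separate the days for this list. Members had 7300, 8576, 8617 and 5166 CPM at day 13 and 11354 (2 cells), 8543, 17737 (3 cells) and 7598 at day 19. The 2 highest values rested on 2 and 3 cells, and the other 2 lay within the day-13 range. At day 19 members stood above the other barcodes on each tag, where these had 3088, 4886, 7072 and 5521.

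**Figure D5:**
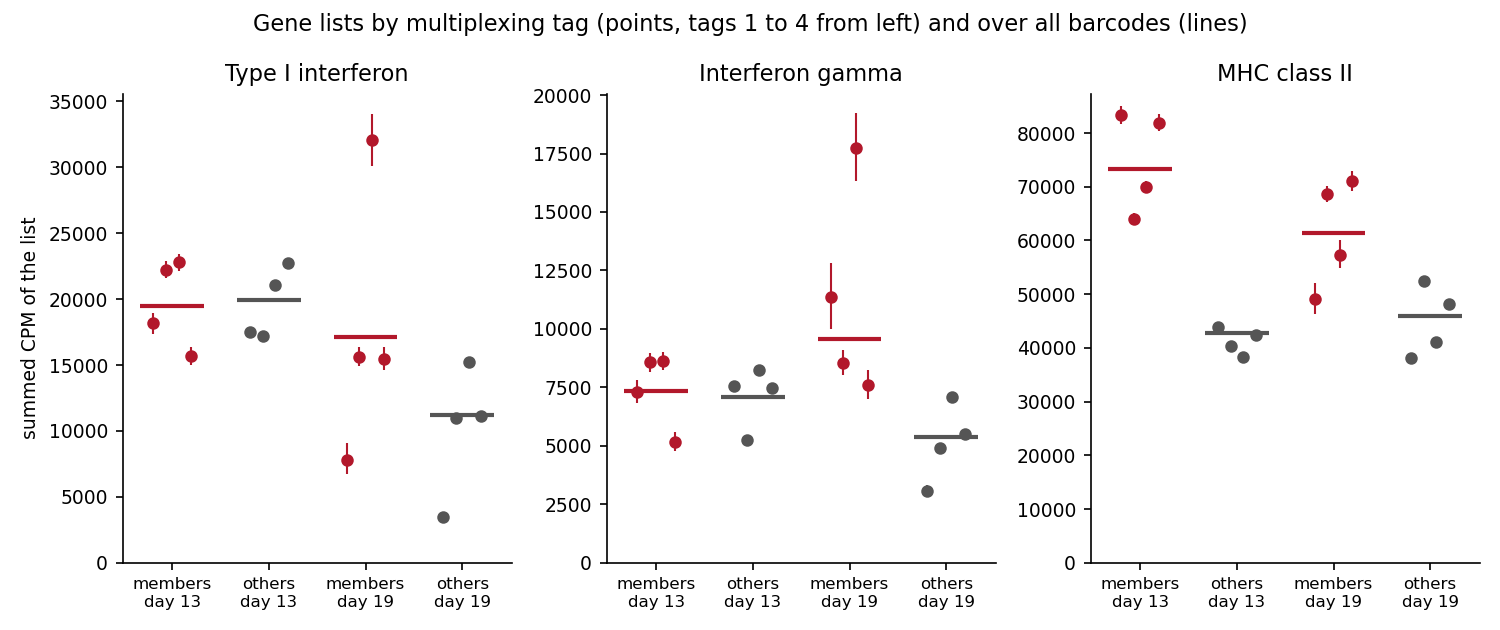
Summed CPM of the type I interferon, interferon gamma and class II presentation lists (vertical axis) in members and other barcodes of each day, by multiplexing tag (points, tags 1 to 4 from left, with 95% counting intervals) and over all barcodes (lines). At day 19 the members of each tag stand above the others of that tag in all 3 panels, and tags 1 and 3 rest on 2 and 3 members. The class II list holds H2-Ab1, which helped to choose the members.

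Over all genes, 37 of 3124 were called higher at day 19 in members (1.18%) and 70 lower (2.24%). Which of these counts was the larger turned with the UMI minimum, as given under the alternatives below. Clec10a was among those higher, at a log2 ratio of 1.35 (1.06 to 1.63), while Cd209a, whose level the rule itself set a minimum for, had a ratio of -0.07. In the other barcodes Clec10a had a ratio of 0.67. Il1rn, the interleukin 1 receptor antagonist, stood at 94.8 CPM at day 13 and 385 at day 19 in members and at 691 and 351 in the others. It was found in 18 and 9 members, and its ratio of 2.02 became 1.52 without the day-19 cell that held most. Irf8, a factor of the dendritic lineage, stood at 178 and 370 CPM, a ratio of 1.06, well below the 1514 and 1784 of type 1 dendritic cells. Without the day-19 cell that held most Irf8 the ratio was 0.76, under 2-fold.

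Some day-19 values rested on 1 cell. C1qa, C1qc, Ctsd and Cd81, all abundant in C1q macrophages, were called higher at ratios of 1.15, 1.13, 1.69 and 1.21. Without the day-19 cell that held most UMIs of each, the ratios were -0.20, 0.06, 0.47 and -0.36. They account for the 4 of 8 macrophage markers called higher between the days.

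Among genes lower at day 19, Ccr7, the receptor that leads dendritic cells to lymph nodes, stood at 149 CPM at day 13 and 14.7 at day 19, but 1 cell held 90 of its 140 UMIs at day 13. Without the top cell of each day its ratio was -2.56, and only 9 and 4 members had a UMI. Mgl2, which encodes the lectin CD301b, stood at 80.9 and 20.6 CPM in members, found in 10 and 2 cells, and at 6.53 and 15.7 in the others. Tnf stood at 121 and 58.8 CPM, a ratio of -1.05 (-1.81 to -0.35), and Tnfsf9, the ligand of the T cell costimulator 4-1BB, at 191 and 91.1, a ratio of -1.06 (-1.66 to -0.51). Without the day-13 cell that held most of each, the ratio was -0.78 for Tnf and -0.95 for Tnfsf9, both under 2-fold. Axl, a receptor for dying cells, stood at 164 and 64.7 CPM and Gpr183, which guides dendritic cells by oxysterols, at 115 and 55.9. Of 18 chemokine and migration receptor genes, the 2 called lower were Ccr7 and Gpr183, beside 2.24% of all genes, and the median ratio was -0.66. Without its top cell of day 13 Gpr183 had a ratio of -0.87, under 2-fold.

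Of 14 costimulatory and checkpoint ligand genes with enough UMIs in members, 1, Tnfsf9, was called between the days, a call lost without 1 cell, beside 37 of 3124 genes higher (1.18%) and 70 lower (2.24%) over all. Cd86, the main ligand of CD28 on these cells, stood at 355 and 379 CPM in members against 303 and 249 in the others. Cd40, through which T cells activate dendritic cells, stood at 301 and 306 CPM against 299 and 156. Il1b stood at 1451 and 1202 CPM against 1190 and 1371. Il12b, a subunit of interleukin 12, had 2 UMIs in 1 member at day 13 and none at day 19, against 34.4 and 26.7 CPM in the others. Class II presentation genes summed to 73382 and 61375 CPM, with a median ratio of -0.15 over 19 genes and 0 called, against a median of 0.12 in the others. The members' median was 0.04 without tag 4 of day 13, so its direction was not stable.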

How the data were processed

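Gene, antibody tag and multiplexing tag UMIs of day 13 and day 19 were analysed, 1 capture each, with TCR contig tables used to mark T cells. The deposited matrices hold raw counts, made with Cell Ranger 4.0.0 against mm10, per the submitters' processing notes. No cell filter had been applied to them: they list 736611 and 735849 barcodes. Counts were summed over the cells of a group and divided by their total (CPM), or, for antibody tags, given per 10000 antibody UMIs. Ratios and levels carry exact Poisson intervals and shares exact binomial (Clopper-Pearson) intervals at 95%, which cover counting error only. Detection was compared after thinning each barcode to 5000 UMIs.

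With 1 capture per day no test between days or groups was possible and none was made. A gene entered a comparison at 50 UMIs or more, and called means 2-fold, on both days for comparisons with the other barcodes. The intervals of the ratios between the days were tested on simulated data. No doublet caller was run; alternatives kept only barcodes with 80% of multiplexing UMIs on 1 tag or set a UMI cap. The members and gene lists were chosen with earlier results of these data known. Genes named are list members and the 15 highest and lowest against the other barcodes, by the smaller of both days' ratios. The 15 highest and lowest by the ratio of day 19 to day 13 in members were added. Gene names are from the files, and promoter windows from RefSeq GRCm38.p6. Python 3.11.15, numpy 2.4.6, scipy 1.17.1 and pandas 2.3.3 were used. A few genes counted in the lists are not reported here by name.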

Additional observations from a re-analysis of the deposited data

Results flagged for a closer look

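For 5 named genes the members differed at least 2-fold between the days while the other barcodes with no Cd3 UMI moved the opposite way with a 95% counting interval that did not include 0. The difference was not tested in any of them, since each day is 1 capture. Igtp had a log2 ratio of 1.08 in members, under 2-fold without its top cell of day 19, and -0.51 in the others. Il1rn had 2.02 in members, 1.52 without the day-19 cell that held most, and -0.98 in the others. Rgcc had 1.43 in members, 0.95 without its top cell of day 19, and -0.45 in the others. Mgl2 had -1.98 in members, from 76 and 7 UMIs in 10 and 2 cells, and 1.27 in the others. Trp53i11 had -1.90 in members and 0.38 in the others.

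The antibody tag Gr1 stood above the other barcodes at day 13, with a log2 ratio of 1.22, and below them at day 19, at -2.56. At day 13 1 member held 89.7% of its UMIs, and the medians over members were 19.7 and 18.2 per 10000 antibody UMIs.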

How the results depend on the processing

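The results were recomputed under 27 alternatives, of which 1, allowing 1 UMI of Xcr1 and Clec9a, was chosen after seeing the data. The share of members at day 13 was 9.24% and became 11.4% with Cd209a at 1 UMI or more, 6.39% with 5 or more, 11.2% with at least 8000 gene UMIs, 7.28% with H2-Ab1 at 50 or more and 11.4% under the added alternative. Genes higher than in the other barcodes, 37, became 21 with at least 8000 gene UMIs, 24 with H2-Ab1 at 50 or more, 74 with median-ratio size factors, and 56 and 19 with a minimum of 20 and 200 UMIs. Genes lower, 486, became 163 with a minimum of 200 UMIs and 253 against others with H2-Ab1 of 10 or more. Genes higher at day 19, 37, became 145 and 10 with a minimum of 20 and 200, and 57 without tag 2 of day 19. Genes lower at day 19, 70, became 106 under the rule applied to thinned barcodes, 343 and 3 with a minimum of 20 and 200, and 46 without tag 3 of day 13. Antibody tags lower than in the others, 0, became 1 with Cd209a at 5 or more, at least 8000 gene UMIs, thinned barcodes, 80% of multiplexing UMIs on 1 tag, at most 1 C1q UMI, or isotype scaling.

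Against others with H2-Ab1 of 10 or more, log2 ratios at day 19 reversed to 1.05 for Gzmb, 6.23 for Gzmc and 0.95 for Nkg7, from 5 UMIs in 2 members, 13 in 1 and 3 in 1. With no TCR UMI in either group Gzmc gave 1.03 and 3.09. Without tag 4 of day 19 the day ratios were -1.31 for C1qa, -0.59 for C1qc, -1.04 for Cd81 and -0.69 for Ctsd, and Ctsd gave -0.85 with at most 1 C1q UMI. Rfxank gave 0.70 under thinning and 0.69 without tag 2 of day 19. The cause was not tested. Of 96 named ratios of 2-fold or more, 32 fell under 2-fold in at least 1 alternative. The members' median ratio for the type I interferon list ranged from -0.27 to -0.01 and the others' from -1.04 to -0.76. For the interferon gamma list they ranged from 0.28 to 0.57 and from -0.30 to -0.12. For class II presentation the members' median ranged from -0.23 to 0.04, and so changed sign, and the others' from 0.04 to 0.17. Tags could not be paired between the days, because each day has 1 capture and no label links a multiplexing tag to mice. Within a day, members and others were set side by side by tag, without a test. The 340188 UMIs of day 19 limit what the days can show for genes of low level.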

Other observations

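Members also differed from the other barcodes in myeloid genes outside the report's comparisons. Of 21 lipid handling genes with enough UMIs, 0 were higher in members and 12 lower. Over all genes 0.552% were higher and 7.25% lower, which is the share to set beside each list here. Fabp5, a fatty acid carrier, stood at 20.2 and 8.82 CPM in members at day 13 and day 19, against 526 and 303 in the others. Pla2g7, a lipase of platelet-activating factor, stood at 6.39 and 2.94 CPM against 277 and 231. Of 16 chemokine genes 1, Ccl9, was higher and 9 were lower, with Ccl2 at 96.9 and 112 CPM against 811 and 534 and Cxcl2 at 6.39 and 17.6 against 366 and 218. Of 16 cell cycle genes 0 were higher and 8 lower. Gene expression chose the members, so these values describe them.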
